A study of Homo sapiens with 6 samples.

Results

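The *VCP* gene, which encodes the p97 ATPase, and 9 genes for proteins that bind p97 were followed in a cell line of triple-negative breast cancer, MDA-MB-231, that had been kept for 24 h with disulfiram and copper (DSF/Cu, 0.2 µM) or with the vehicle DMSO. The 10 genes were chosen by name: *VCP*, the core cofactors *NPLOC4* (which encodes NPL4) and *UFD1*, and the UBX domain genes *NSFL1C*, *FAF1*, *FAF2*, *UBXN1*, *UBXN4*, *UBXN6* and *UBXN7*. All 10 were found among the 58825 genes of the table, and all 10 passed the low-count filter with which 18229 genes were tested. NPL4 is a proposed target of the copper complex that disulfiram forms, which is why the set was drawn. Each group held 3 libraries of poly(A) RNA, and each library pooled the cells of 3 wells. What disulfiram does and what copper does cannot be told apart, since the groups hold only the pair, and the labels do not say whether 0.2 µM refers to disulfiram, copper or both. The labels do not say that the repeats came from separate cultures. The p-values are therefore set against the spread of these 6 samples alone, and that spread may be technical.

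p97 is a ring-shaped ATPase that pulls ubiquitinated proteins out of membranes, complexes and chromatin and unfolds them, often on their way to the proteasome. It takes its direction from cofactors. The UFD1-NPL4 dimer docks on the ring and binds the ubiquitin chain, and it serves the removal of misfolded proteins from the endoplasmic reticulum (ER) among other tasks. Proteins with a UBX domain, a ubiquitin-like fold that fits the same N domain of p97, steer the ring to membranes, ligases or substrates, and several of them also carry a UBA domain that binds ubiquitin.

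Libraries held 55563223 to 70883177 counts. Mitochondrially encoded genes took 7.21% to 7.80% of counts in DMSO and up to 8.54% after DSF/Cu, without overlap. *VIM*, the intermediate filament of mesenchymal cells, stood at 2552 to 3526 CPM (counts scaled to library size with TMM), and the receptor genes *ESR1* and *PGR* at no more than 1.09 CPM. The receptor gene *ERBB2*, also listed as low, was not, at a mean of 69.4 CPM in DMSO and 39.7 after DSF/Cu (edgeR adjusted p = 0.000937). Among 12 markers of immune, endothelial, stromal, fat and other epithelial cells, *CD3E*, *LYZ* and *ADIPOQ* had no count in any library, and the 12 together summed to 2.46 to 3.43 FPKM in DMSO and 1.97 to 2.58 after DSF/Cu. Most of this sum was the epithelial gene *EPCAM*, which fell from 2.60 to 1.42 FPKM on average (edgeR adjusted p = 0.0376). The collagen gene *COL1A1* went the other way, from 2.26 ± 0.894 to 6.07 ± 0.781 CPM (SD, n = 3 per group, edgeR adjusted p = 0.0115). With these, 5 of the 12 markers were tested, and their median log2 change was 1.42. *PECAM1* (log2 change 1.03), *PDGFRB* (2.21) and *KRT14* (3.68) were not called, with means of at most 1.43 CPM in either group. *SPARC* and *S100A4*, which had been listed as markers of the line, were low in every library, at no more than 0.983 and 3.54 CPM. Of the 6 line markers 3 were called lower, against 16.8% of all tested genes: *VIM*, *LGALS1* and *KRT18* (edgeR adjusted p = 0.0208, 0.04 and 0.000945). The other 3, *CD44*, *SPARC* and *S100A4*, were not called, with log2 changes of 0.20, 1.49 and -0.19. The 6 line markers together summed to 908 to 969 FPKM in DMSO and 651 to 720 after DSF/Cu, and the receptor genes *ESR1*, *PGR* and *ERBB2* to 5.74 to 6.61 and 2.75 to 3.33. The part of these differences in the results below was not tested.

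Sequence before the start site is shown for *VCP*, the member with the most counts, and for *FAF2* and *FAF1*, of which *FAF2* rose least among the called genes and *FAF1* was not called. The sequences are the 250 bases before the start of each gene in RefSeq (GRCh38.p14), written 5′ to 3′ on the strand of the gene. In the *VCP* sequence (chr9:35072626-35072875, minus strand) the capitals mark the CCAAT box, read on either strand. In the other sequences (*FAF2*, chr5:176448135-176448384, plus strand, and *FAF1*, chr1:50960268-50960517, minus strand) they mark the heat shock motifs GAANNTTC and TTCNNGAA and the antioxidant response motif TGACNNNGC.

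VCP: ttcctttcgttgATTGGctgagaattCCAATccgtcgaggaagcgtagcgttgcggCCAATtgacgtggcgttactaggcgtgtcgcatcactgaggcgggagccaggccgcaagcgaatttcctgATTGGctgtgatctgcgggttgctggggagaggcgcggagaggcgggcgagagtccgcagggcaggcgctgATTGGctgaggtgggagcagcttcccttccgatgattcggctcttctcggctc

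FAF2: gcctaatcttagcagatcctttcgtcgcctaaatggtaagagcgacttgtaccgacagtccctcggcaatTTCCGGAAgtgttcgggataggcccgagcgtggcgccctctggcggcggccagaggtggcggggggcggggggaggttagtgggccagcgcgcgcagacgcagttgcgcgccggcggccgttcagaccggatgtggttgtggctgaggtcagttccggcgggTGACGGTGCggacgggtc

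FAF1: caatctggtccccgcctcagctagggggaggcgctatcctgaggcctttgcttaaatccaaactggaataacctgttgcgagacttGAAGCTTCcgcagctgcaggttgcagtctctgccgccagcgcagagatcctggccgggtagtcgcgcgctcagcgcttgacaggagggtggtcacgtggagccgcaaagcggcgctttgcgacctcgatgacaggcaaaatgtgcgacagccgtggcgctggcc

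The *VCP* window held 5 CCAAT boxes, starting 238, 224, 194, 124 and 53 bases before the start. Of all 35116 windows of this length in the RefSeq table, 32.01% held at least 1 such box and 0.319% held 5 or more. The antioxidant response motif TGACNNNGC also occurred in *VCP*, beginning 189 bases before the start, directly after a CCAAT box. 9 of the 10 genes had a promoter entry, all but *UFD1*. Of them 7 started within 1000 bases of the 5′ end given in the deposited table, which left out *NPLOC4* and *UBXN6*. Neither gene of the UFD1-NPL4 dimer is therefore in the counts below. The *FAF2* window lies inside the gene as the table gives it, since its RefSeq start is 757 bases further in. Among these 7, TGACNNNGC was found in 2 (*VCP* and *FAF2*; 10.9% of all windows), GAANNTTC in 1 (*FAF1*; 5.78%), TTCNNGAA in 1 (*FAF2*; 6.62%), where it overlaps an ETS motif CCGGAAG (8.52%), and the GC box GGGCGG in 4 (42.6%). The ATF4 motif TGATGNAA was found in 0 of 7 (3.14% of all windows) and the ER stress element (ERSE) in 0 of 7 (0.074%). All motifs were read on both strands. The metal response motif TGCGCNC was found in 3 (*FAF2*, *UBXN4* and *UBXN7*; 16.8% of all windows). Its other form TGCACNC (9.87%), the cAMP motif TGACGTCA (1.65%) and the YY1 motif AAGATGGC (1.36%) were found in 0. A match is a description of the letters and not a bound site.

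DSF/Cu was compared with DMSO to ask whether the genes of p97 and its cofactors changed with the compound proposed to act on NPL4. With edgeR's quasi-likelihood test, 8 of the 10 genes rose and 0 fell at a Benjamini-Hochberg adjusted p under 0.05 over all genes, where 18.5% of all tested genes rose, 16.8% fell and 35.2% were called in either direction. *UFD1* had the largest log2 change among the 10, and *NPLOC4*, its partner in the dimer, one of the smallest among those called. *FAF1* and *UBXN6* were not called. The median log2 change of the 10 genes was 0.59, against 0.0023 for all tested genes, and 6 of the 10 lay above the upper quartile of all genes (0.46). The 10 genes together took 0.162% to 0.168% of all counts in DMSO and 0.218% to 0.222% after DSF/Cu. In bulk libraries, more cells with a transcript and more of it per cell cannot be told apart.

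These values depend on how libraries are scaled. They use TMM, which sets most genes to no change on average. With scaling by total counts, the median over all genes was -0.18 on the log2 scale and that of the 10 genes 0.41. Rises made up 32.7% of all calls, against 52.4% with TMM. Under total-count scaling 6 of the 10 genes rose and 1, *FAF1*, fell, where 2356 of all 18229 tested genes rose and 4856 fell. The plot of log2 changes shows the 10 genes in order with their errors.

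**Figure D1:**
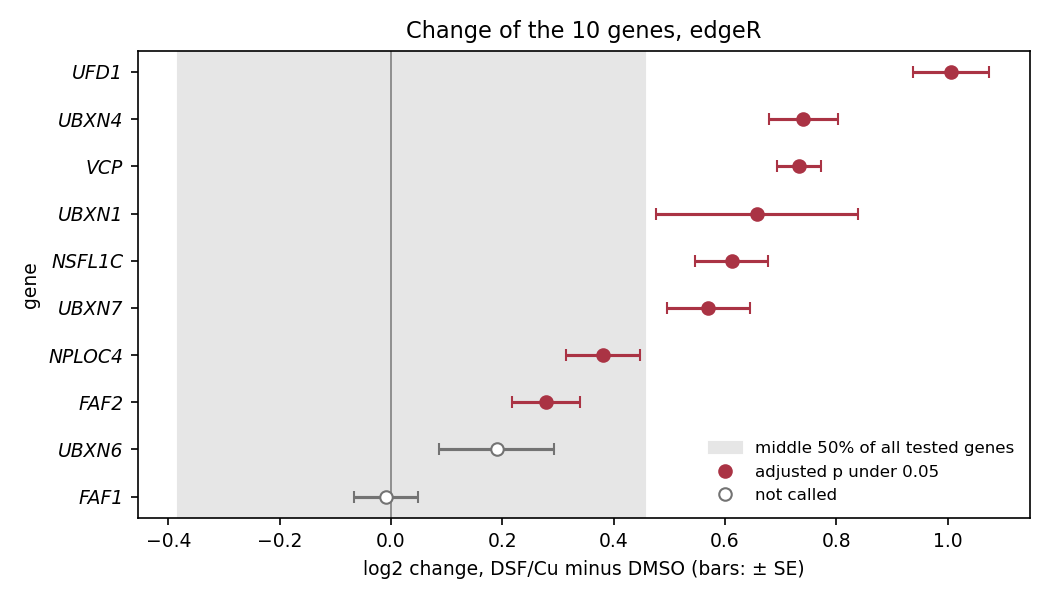
Log2 change of each gene (x axis, DSF/Cu minus DMSO, bars ± SE of edgeR's fit, 3 libraries per group), with the middle 50% of all 18229 tested genes in grey. Filled points passed an adjusted p under 0.05: 8 genes lie to the right of 0, and *FAF1* and *UBXN6* (open) were not called.

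*VCP* (ENSG00000165280, chr9:35056064-35072627, minus strand, GRCh38) encodes the ATPase itself. It held 633, 652 and 621 CPM in the DMSO libraries and 1075, 1052 and 1042 CPM in the DSF/Cu libraries. The libraries of each group lay close together and far from those of the other group. *VCP* went from 635 ± 15.9 to 1057 ± 17.1 CPM (SD, n = 3 per group), a rise of 0.73 ± 0.04 on the log2 scale (SE, edgeR adjusted p = 9.13e-05), or 1.66-fold. It was already among the more abundant transcripts, ranking 137 of the tested genes by CPM in DMSO.

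*UFD1* (ENSG00000070010, chr22:19449911-19479193, minus strand) encodes a subunit of the UFD1-NPL4 dimer, and the dimer binds p97 and ubiquitin. Its DMSO libraries held 63.3, 68.5 and 66.4 CPM and its DSF/Cu libraries 142, 132 and 125 CPM. Every DSF/Cu library held more than any DMSO library. It rose by 1.01 ± 0.07 (log2, SE, edgeR adjusted p = 0.00017), from 66.1 ± 2.62 to 133 ± 8.46 CPM (SD, n = 3 per group), or 2.01-fold. Genes on the opposite strand overlap it, with at most 74 counts against 7988 for *UFD1*.

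*NPLOC4* (ENSG00000182446, chr17:81556887-81637112, minus strand) encodes NPL4, the zinc finger subunit that grips the ubiquitin chain. Its DMSO libraries held 236, 223 and 219 CPM and its DSF/Cu libraries 317, 276 and 291 CPM. The groups did not overlap, but the gap was narrower than for *UFD1*. It rose by 0.38 ± 0.07 (log2, SE, edgeR adjusted p = 0.00561), from 226 ± 9.20 to 294 ± 20.8 CPM (SD, n = 3 per group). Under total-count scaling its log2 change was 0.19 (adjusted p = 0.0459), and over the alternatives its adjusted p ran from 0.000267 to 0.0459.

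The UBX genes with a UBA domain, whose proteins bind p97 and ubiquitin at once, changed unequally. *NSFL1C* (ENSG00000088833, chr20:1442162-1466918, minus strand) encodes p47, which works with p97 in the fusion of Golgi and nuclear membranes. It went from 131, 147 and 142 CPM in DMSO to 223, 216 and 203 CPM after DSF/Cu, without overlap, a rise of 0.61 ± 0.07 (log2, SE, edgeR adjusted p = 0.000896). *UBXN7* (ENSG00000163960, chr3:196347662-196432427, minus strand), whose product links p97 to cullin-RING ubiquitin ligases, held 80.4, 67.6 and 75.2 CPM in DMSO and 111, 109 and 112 CPM after DSF/Cu. The DSF/Cu libraries were tightly grouped and all above DMSO, a rise of 0.57 ± 0.07 (log2, SE, edgeR adjusted p = 0.00181).

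*UBXN1* (ENSG00000162191, chr11:62676498-62679077, minus strand), whose product SAKS1 binds ubiquitin chains, was the least even of the 10 genes. It held 54.0, 56.8 and 43.6 CPM in DMSO and 76.9, 102 and 64.9 CPM after DSF/Cu. DSF/Cu replicate 2 stood well above the other libraries of its group, and the lowest DSF/Cu library lay only a little above the highest DMSO library. It rose by 0.66 ± 0.18 (log2, SE, edgeR adjusted p = 0.0309). The call was lost without DMSO replicate 1, 2 or 3 or DSF/Cu replicate 1 or 2 (adjusted p from 0.056 to 0.0929; the log2 change was 0.47 without DSF/Cu replicate 2) and under total-count scaling (0.47, adjusted p = 0.0827), and with limma on FPKM (adjusted p = 0.0763 and 0.0772).

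*FAF2* (ENSG00000113194, chr5:176447628-176510074, plus strand) encodes UBXD8, which sits in the membrane of the ER and of lipid droplets. It held 145, 143 and 130.4 CPM in DMSO and 175, 164 and 168 CPM after DSF/Cu. The groups did not overlap in these TMM-scaled values, and it rose by 0.28 ± 0.06 (log2, SE, edgeR adjusted p = 0.0138). Under total-count scaling the log2 change was 0.092 and was not called (adjusted p = 0.281), nor was it with limma on FPKM (adjusted p = 0.178 and 0.18).

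*FAF1* (ENSG00000185104, chr1:50437028-50960267, minus strand), first known as a FAS-binding protein, encodes a cofactor that joins the p97 complex holding UFD1-NPL4. It held 81.0, 83.5 and 83.7 CPM in DMSO and 80.1, 86.6 and 80.0 CPM after DSF/Cu. The groups overlapped fully, with a log2 change of -0.0092 ± 0.06 (SE, edgeR adjusted p = 0.921). Under total-count scaling it was called lower (-0.19, adjusted p = 0.0442), so its lack of a call holds with TMM and not with every scaling.

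The 2 remaining UBX genes lack a UBA domain. *UBXN4* (ENSG00000144224, chr2:135741734-135780221, plus strand) encodes erasin, an ER membrane protein that takes part in the disposal of ER proteins. It went from 94.6, 91.6 and 99.9 CPM in DMSO to 153, 168 and 157 CPM after DSF/Cu. All DSF/Cu libraries were far above DMSO, and it rose by 0.74 ± 0.06 (log2, SE, edgeR adjusted p = 0.000363), as large a log2 change as that of *VCP* within the errors.

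*UBXN6* (ENSG00000167671, chr19:4444999-4457794, minus strand) encodes UBXD1, which serves p97 in endolysosomal sorting. It held 46.5, 47.1 and 44.6 CPM in DMSO and 60.7, 47.7 and 49.2 CPM after DSF/Cu. On this TMM scale each DSF/Cu library lay above each DMSO library, but only replicate 1 by more than a few CPM, and the log2 change of 0.19 ± 0.10 was not called (SE, edgeR adjusted p = 0.21). It was 0.0018 under total-count scaling, 0.0095 and 0.01 with limma on FPKM, and 0.075 without DSF/Cu replicate 1, and was called in none of the 15 alternatives. A gene on the opposite strand, ENSG00000280239, overlaps its exons and held up to 431 counts in a library, against up to 3547 for *UBXN6*. The strand setting of the counting is not given in the sources used here, so reads of the pair could not be told apart if it was unstranded. In TMM-scaled CPM the DSF/Cu libraries lay wholly above the DMSO libraries for 9 of the 10 genes, *UBXN6* included, and the groups did not overlap for 51.2% of all tested genes, in either direction. In the deposited FPKM, a scale added after the data were seen, this held for 8 of the 10, *UBXN6* overlapped and *FAF1* lay wholly below. In counts over the library total, added likewise, it held for 7, *UBXN6* and *FAF2* overlapped and *FAF1* again lay below. The share of all tested genes without overlap was taken in TMM-scaled CPM only. The counts in FPKM and over the library total therefore have no background to be set against.

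Levels can be compared between genes only per length, and the FPKM values (fragments scaled by gene length and library size) served for this within each group. The sources used here do not say which length was taken. Merged over all annotated transcripts, the exons span 8736 bases for *UFD1* (10 transcripts) and 9574 for *NPLOC4* (21 transcripts). A length that takes in exons not expressed here lowers the FPKM of a gene. How far this set the order between genes was not tested. In DMSO *VCP* stood at 119 ± 2.66 FPKM (SD, n = 3), far above all 9 cofactors. *NPLOC4* (21.4 ± 0.995), *FAF2* (21.2 ± 1.22), *NSFL1C* (19.3 ± 1.01), *UBXN1* (18.3 ± 2.47) and *UBXN4* (17.2 ± 0.796) followed, and each overlapped its neighbour in this order. *FAF1* (9.88 ± 0.127), *UBXN6* (7.90 ± 0.227), *UFD1* (6.82 ± 0.224) and *UBXN7* (5.96 ± 0.557) were lower, without overlap between neighbours. By FPKM *UFD1* was thus 9th of 10 in DMSO.

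After DSF/Cu *VCP* stood at 176 ± 0.40 FPKM and *UFD1* at 12.2 ± 0.556, now 7th of 10 and above *FAF1* (8.72 ± 0.464) without overlap. *NSFL1C* (26.2 ± 0.876), *UBXN1* (25.6 ± 5.96), *UBXN4* (25.5 ± 1.51) and *NPLOC4* (24.7 ± 1.40) overlapped as neighbours in the order, as did *FAF1*, *UBXN6* (7.99 ± 0.945) and *UBXN7* (7.86 ± 0.188). *NPLOC4* went from 2nd to 5th place. FPKM values are not scaled by TMM: on this scale the *FAF1* libraries after DSF/Cu lay below those in DMSO.

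**Figure D2:**
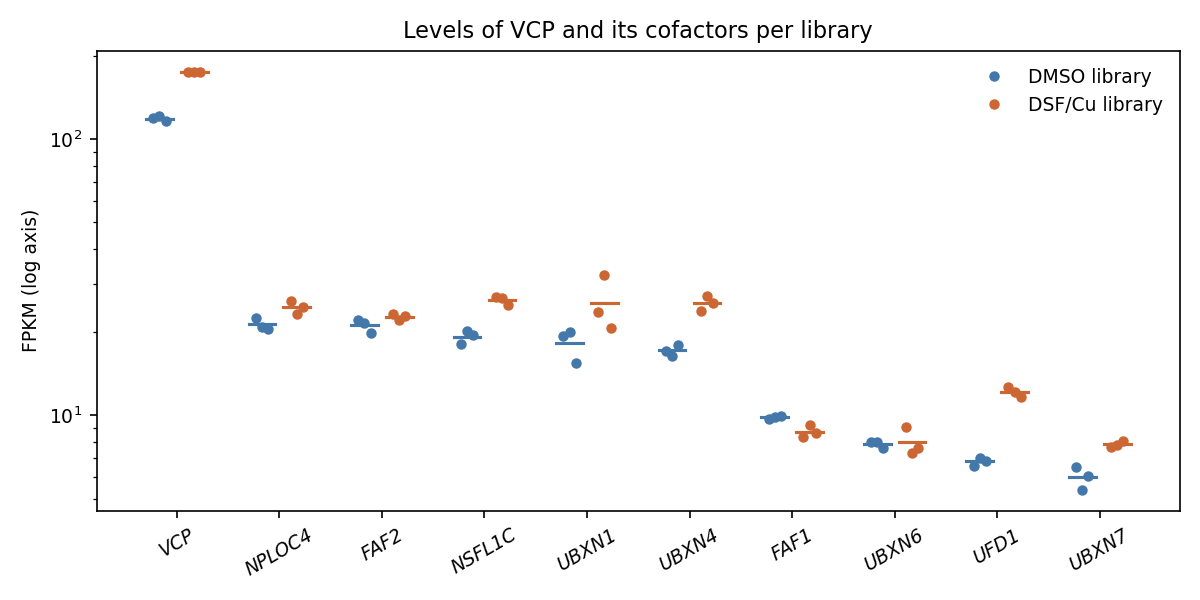
FPKM of the 10 genes in each library (log axis; points are libraries, lines the group means, 3 libraries per group). *VCP* lies above all cofactors in both groups, at a mean of 119 FPKM in DMSO and 176 after DSF/Cu, and *UFD1* moves from 6.82 to 12.2.

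NPL4 and UFD1 act as a dimer, so the ratio of their transcripts was taken within each library, which needs no scaling between libraries. The FPKM of *NPLOC4* was 3.42, 2.98 and 3.01 times that of *UFD1* in DMSO and 2.05, 1.91 and 2.13 times after DSF/Cu. The ratio was lower in all 3 DSF/Cu libraries, 2.03 ± 0.111 against 3.14 ± 0.243 (SD, n = 3 per group), a log2 difference of -0.63 (exact two-sided permutation p = 0.1, the smallest p that 3 against 3 libraries allow). Taken against *VCP*, *UFD1* was higher after DSF/Cu (a ratio of 0.0693 ± 0.00331 against 0.0574 ± 0.00201, exact permutation p = 0.1) and *NPLOC4* was lower (0.141 ± 0.00823 against 0.180 ± 0.00799, exact permutation p = 0.1), both without overlap. The ratio of *NSFL1C* to *VCP* overlapped between groups (0.149 ± 0.0052 after DSF/Cu against 0.162 ± 0.00891, exact permutation p = 0.2). These were the 4 ratios compared, and none can pass an adjusted p under 0.05 at this number of libraries. The FPKM of *VCP* was 0.917 to 0.937 times the sum over the 9 cofactors in DMSO and 1.05 to 1.13 times that sum after DSF/Cu. The sizes of all these ratios, like the order of the genes, rest on the gene lengths behind the FPKM.

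**Figure D3:**
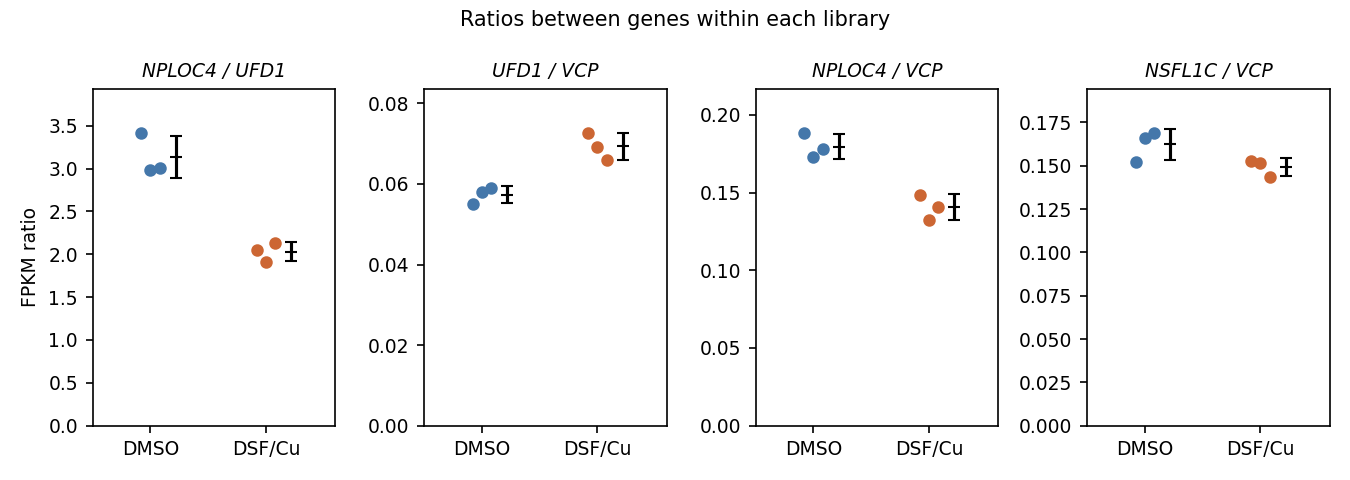
Ratios of FPKM between genes in each library (y axes start at 0; points are libraries, bars mean ± SD of 3 libraries). *NPLOC4* to *UFD1* goes from 3.14 to 2.03 on average without overlap, while the *NSFL1C* to *VCP* ratios of the groups overlap.

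For *VCP*, *NPLOC4* and *UFD1* the protein-coding genes with the most similar profile were looked up among 9557 genes with a mean count of at least 500, by Euclidean distance between log2 CPM profiles set to the DMSO mean, over the 6 libraries. The nearest to *VCP* were *ACBD3* (distance 0.0601, log2 change 0.74), the proteasome subunit *PSMD2* (0.0631, 0.72) and *NFE2L2*, which encodes NRF2 (0.0695, 0.72). The nearest to *UFD1* were the constitutive HSP90 gene *HSP90AB1* (0.0352, 1.01), *ZNF143* (0.0588, 0.99) and *SEC24A*, a coat component of vesicles that leave the ER (0.0769, 0.99). The nearest to *NPLOC4* were the elongation factor *EEF2* (0.0695, 0.37), the autophagy gene *ATG16L1* (0.0725, 0.38) and *IGDCC4* (0.0749, 0.39). With 2 groups of 3 libraries this likeness mostly restates a similar difference between groups.

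Other genes of the p97 system were taken from lists of further cofactors, enzymes, partners and shuttles. Of 41 listed genes 38 were tested (*UBXN10*, *DERL3* and *DDI1* were too low), and with edgeR 18 rose, 4 fell and 16 were not called, with a median log2 change of 0.086. The background is 18.5% of all tested genes raised and 16.8% lowered. Under total-count scaling 10 rose and 8 fell, where 2356 of all 18229 tested genes rose and 4856 fell. The plot of these lists shows each gene.

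Of the other UBX genes 1 of 5 tested rose and 2 fell, with a median log2 change of -0.29. *UBXN8*, which encodes an ER membrane cofactor, rose from 7.97 ± 1.12 to 15.9 ± 1.33 CPM (SD, n = 3 per group). *UBXN2B*, which encodes the p47 relative p37, fell from 23.0 ± 1.19 to 15.0 ± 0.763 CPM, and the related *UBXN2A* from 32.4 ± 2.80 to 26.5 ± 1.04 CPM.

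Among 16 soluble cofactors and enzymes 8 rose and 1 fell (median 0.21). The largest of the named rises was that of *VCPIP1*, a deubiquitinase that works with p97 and p47, from 21.0 ± 1.63 to 50.9 ± 1.51 CPM, a log2 change of 1.28 ± 0.08 (SE, edgeR adjusted p = 0.00014). *YOD1*, another p97-bound deubiquitinase, rose by 1.07 ± 0.07 and *UBE4A*, a ubiquitin ligase that extends chains, by 0.81 ± 0.05. *USP13*, a deubiquitinase tied to UFD1, fell by 0.58 ± 0.07 on the log2 scale, from 81.2 ± 3.17 to 54.4 ± 2.83 CPM.

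Among 10 tested ER membrane partners 6 rose and 1 fell (median 0.24). *HERPUD1*, which gathers ER disposal complexes, went from 26.6 ± 2.34 to 174 ± 12.2 CPM. Its log2 change of 2.71 ± 0.09 (SE) was far above that of any other gene of these lists. The p97 anchor *SELENOS* rose by 0.50 ± 0.07 (log2, SE) and *SEL1L*, the adaptor of the HRD1 ligase, by 0.30 ± 0.05. *SVIP*, a small inhibitor of p97 in ER disposal, fell by 0.56 ± 0.09. Of 7 ubiquitin shuttles and genes for NRF1 processing 3 rose and 0 fell (median 0.056): *UBQLN1* by 0.70 ± 0.06, *RAD23B* by 0.28 ± 0.04 and *UBQLN2* by 0.24 ± 0.06. Of 4 related AAA ATPases 1 rose, *SPATA5* (0.40 ± 0.09), and *NSF*, *NVL* and *SPATA5L1* were not called.

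**Figure D4:**
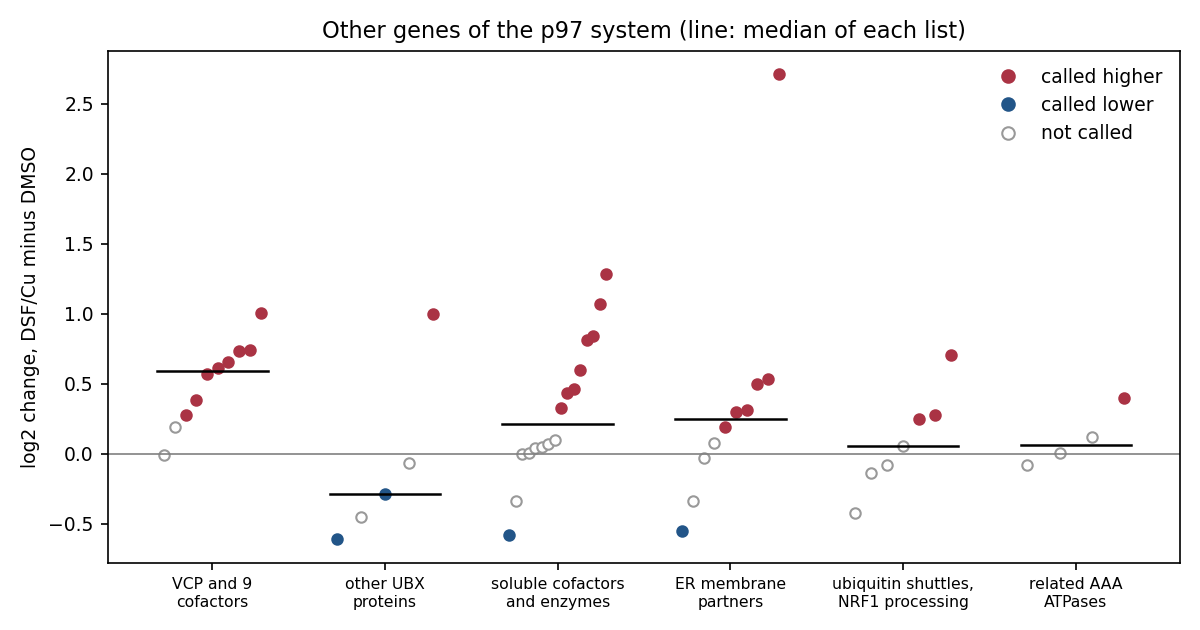
Log2 change of each tested gene by list (y axis, DSF/Cu minus DMSO; filled points passed an adjusted p under 0.05, black lines are list medians). The 10 genes of *VCP* and its cofactors have a median of 0.59, the other UBX genes one of -0.29, and *HERPUD1* is the highest point at 2.71.

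With all 6 libraries, 8 of the 10 genes were called higher under RLE or upper quartile scaling, either other filter, the replicate block and DESeq2, and 6 were under total-count scaling and with limma on FPKM. With each library left out in turn 7 or 8 rose. Over all genes, 2356 of 18229 rose under total-count scaling, and 1997 and 1992 of 13497 with limma on FPKM. In the other fits of all 6 libraries 2692 of 18229 (replicate block) to 3856 of 22412 (DESeq2) rose. Without the low-count filter 2967 of 29289 rose, and 3133 of 15356 with at least 10 counts in every library. With 1 library left out, 2786 of 19113 (without DMSO replicate 2) to 2953 of 18929 (without DSF/Cu replicate 3) rose. *VCP*, *UFD1*, *UBXN4*, *NSFL1C*, *UBXN7* and *NPLOC4* were called higher in all 15 alternatives, and the plot of the alternatives shows the spread of each.

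**Figure D5:**
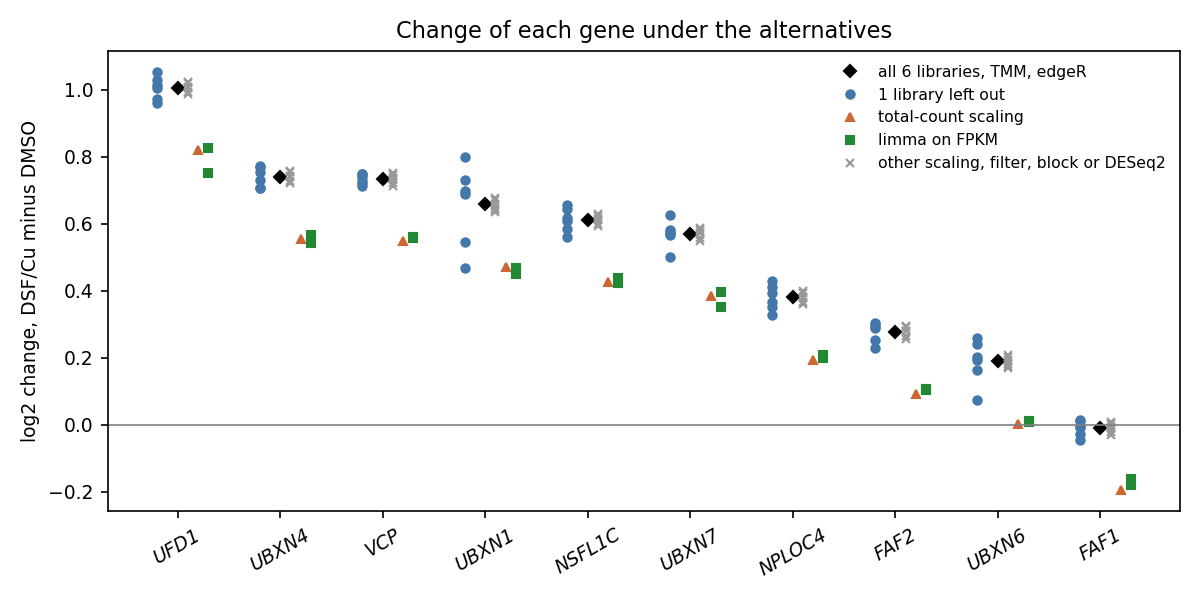
Log2 change of each gene (y axis) in the fit reported here (diamonds) and under 15 alternatives. Total-count scaling (triangles) and limma on FPKM (squares) put every gene lower than the diamonds, with *FAF1* at -0.19 under total counts, and *UBXN1* is the most spread when 1 library is left out (0.47 to 0.80).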

How the data were processed

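Poly(A) RNA of 3 DMSO and 3 DSF/Cu libraries was measured. Counts were deposited by the authors as whole numbers per gene, and FPKM values, also deposited by the authors, give genes with no count a small fixed value. Bowtie 0.12.2, HISAT2 2.0 and StringTie 1.3.0 are named in the submitters' processing notes with no role; for the counter, strand setting and annotation, the sources used here give nothing. Those notes name a mouse build, but 58552 of 58825 gene IDs are in GENCODE 29 (human, GRCh38), 58190 with a start within 1000 bases, so coordinates are given as GRCh38. Columns headed Control were taken as DMSO, the only untreated group.

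Genes were kept by filterByExpr, scaled by TMM and compared with edgeR 4.0.16 (quasi-likelihood, two-sided, R 4.3.3), with Benjamini-Hochberg adjustment over 18229 genes; standard errors are the log2 change over the square root of F. Alternatives used DESeq2 1.42.0, limma 3.58.1 on log2(FPKM + 1) or log2(FPKM + 0.1), other scalings and filters, a replicate block and each library left out. CPM are TMM-scaled. The edgeR steps were tested on simulated counts. Libraries of a group differed by a chi-square per degree of freedom of 45.7 to 58.1, so none is a copy. The members and lists were chosen with earlier results of these data known. All 10 members are named, from each other list up to 3 called genes by adjusted p in each direction, and for 3 members the 3 genes of nearest profile; *CDC45*, *CDKN2C* and *NFE2L1* were named after their values were seen. Promoter sequences are from RefSeq. Depth was 55563223 to 70883177 counts per library.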

Additional observations from a re-analysis of the deposited data

How the results depend on the processing

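Same-numbered libraries of the groups showed no clear shared deviation (correlations of their deviations were 0.0214, -0.00775 and 0.0441). Those of differently numbered libraries ran from -0.0493 to 0.03. With 3 pairs this cannot exclude that same-numbered libraries were handled together. With the replicate block 8 of the 10 genes rose and 0 fell, and of all 18229 tested genes 2692 rose and 2451 fell. The same block gave 13 rises and 3 falls among the 38 other p97 genes. In the ratios the block leaves the log2 difference of *NPLOC4* to *UFD1* at -0.626 (exact sign permutation p = 0.25, the smallest that 3 pairs allow). Over all genes 3365 rose and 3059 fell, against 1997 and 4612 with limma on log2(FPKM + 1) and 1992 and 4580 on log2(FPKM + 0.1). Under total-count scaling 2356 rose and 4856 fell. Total-count scaling called 1 of the 10 genes lower. Among the other p97 genes, 18 rises and 4 falls became 10 and 8 under total-count scaling, and 10 and 7 with limma at either pseudocount. *FAF1* changed sign without a call with RLE size factors (0.0034), with at least 10 counts in every library (0.0086) and without DSF/Cu replicate 1 or 3 (-0.044 to 0.015 over the libraries left out). *CDC45* changed sign without a call under total-count scaling (-0.117) and with limma on log2(FPKM + 1) (-0.0996) or log2(FPKM + 0.1) (-0.104). The limma fits tested 13497 genes. The cause of these differences was not tested. With libraries left out, 2786 to 2953 genes rose and 2284 to 2550 fell, of 18929 to 19113 tested. The 4 ratios kept their sign with each library left out.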

Other observations

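2 of the 10 genes start close to a well-counted gene on the opposite strand (starts within 1000 bases, at least 500 counts in a library), a search added after the data were seen. *UFD1* and *CDC45*, a replication factor, start 266 bases apart. *CDC45* held 4737, 4275 and 4052 counts in DMSO and 3657, 3642 and 3613 after DSF/Cu, which is 62.4 and 65.4 CPM on average, and its log2 change of 0.07 ± 0.06 did not pass the test (SE, edgeR adjusted p = 0.424), where that of *UFD1* was 1.01 ± 0.07. *FAF1* and *CDKN2C*, an inhibitor of cyclin-dependent kinases, start 478 bases apart. *CDKN2C* fell by 0.99 ± 0.11 (log2, SE, edgeR adjusted p = 0.00107), from 33.82 to 17.04 CPM, and was called lower in all 15 alternatives, where *FAF1* had a log2 change of -0.0092 ± 0.06. The difference between the genes of each pair was not tested.

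Of the other p97 genes, *NFE2L1* was uneven within the DMSO group. This gene, which encodes the transcription factor NRF1 that p97 draws from the ER, held 499, 480 and 300.5 CPM in DMSO and 345, 312 and 295 after DSF/Cu. Its log2 change of -0.43 ± 0.19 did not pass the test (SE, edgeR adjusted p = 0.132).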
